A study of Astatotilapia calliptera and Pundamilia nyererei and Oreochromis niloticus with 31 samples.

Results

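The 6 Gypsy internal regions described here, Gypsy-107_[INT], Gypsy-41_[INT], Gypsy-50_[INT], Gypsy-10_[INT], Gypsy-81_[INT] and Gypsy-33_[INT], are entries of the curated transposable element (TE) annotation used for the cichlids of Lake Malawi. They are 6 of 557 TE families in the table of piRNA levels and 6 of its 103 Gypsy internal regions. They were chosen by their piRNA levels in testes, for large differences between 3 Lake Malawi species, so those differences are described without a test. The choice is close to a ranking but not equal to it. By the range over the 3 species means of testes the 6 regions stood at ranks 1, 2, 3, 4, 5 and 7 of the 103, with Gypsy-33 just inside at a range of 1.07 on the log2 scale. Gypsy-117, at rank 6, had a range of 1.09 and is not among them, and the next region after Gypsy-33 was Gypsy-73, with 1.05.

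Gypsy elements are retrotransposons with long terminal repeats (LTRs). They copy themselves through an RNA intermediate. Their internal region typically encodes gag, a structural protein, and pol, which holds the protease, reverse transcriptase, RNase H and integrase activities, while the flanking LTRs carry the signals that start and end transcription. In animal germ cells, Piwi proteins loaded with piRNAs recognise TE transcripts and silence them, and much of this small RNA (sRNA) population matches TEs themselves. Because the annotation lists internal region and LTR as separate entries, a piRNA level is available for each. The LTR entry of the same number was taken as the counterpart by its name alone, and Gypsy-41 has none in the table.

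The sRNA libraries came from wild-type fish: 4 from testes of Astatotilapia calliptera (AC), 4 from testes of Tropheops sp. 'mauve' (TM), 2 from testes of Maylandia zebra (MZ), 3 from ovaries of AC and 1 from muscle of AC, a somatic tissue. MZ males were adults bred in captivity and bought from a supplier, whereas AC and TM were raised in the aquaria of the study, so species and source of the MZ fish cannot be told apart. By the methods, replicates are biological and were taken from size-matched fish, while the labels do not tie a library to a fish and give no age for AC and TM. Each value is a regularised log (rlog) value on the log2 scale for reads of 24 to 35 nucleotides, all mapped to the AC genome. A species whose copies have drifted from the AC genome may therefore lose reads, and a read with several matches was placed at 1 of them at random. The values are neither per length nor per genomic copy, so levels were compared between libraries and not between entries, except as a difference between internal region and LTR that was followed across libraries. rlog values shrink differences where reads are few, whereas a choice by large differences favours large ones, and the net effect on the folds was not tested.

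The reads behind the 6 regions were many in gonads and few in muscle. Scaled back with the number of TE-assigned reads of each library, the internal regions held roughly 195 to 29816 reads in each of the 13 gonad libraries and 5 to 9 reads in muscle. Together the 6 regions took 1.03% ± 0.118 of the summed TE values in AC testes (SD, n = 4), 0.985% ± 0.0269 in TM testes (n = 4), 1.10% ± 0.112 in MZ testes (n = 2), 0.925% ± 0.192 in AC ovaries (n = 3) and 0.316% in the muscle library. All 103 Gypsy internal regions took 8.51% in muscle, against 18.8% to 23.3% in the gonad libraries. With few TE reads in muscle and values drawn towards the family means, nothing is read from the muscle share. The means of the summed share of the 6 regions lay between 0.925% and 1.10% in the gonad groups, with SDs of 0.0269 to 0.192. Single regions were high in one species and low in another. Among the TM testis libraries, replicates 1 and 3 stood apart by their likeness: the SD over families of their difference was 0.0505 on the log2 scale, against 0.122 to 0.182 for the other TM pairs. Over families, their squared difference relative to counting noise had a median of 0.731, below that noise, against 2.49 to 8.30 for the other TM pairs and a mean of 8.76. They were kept as separate libraries on the mean, so that n = 4 for TM testes may be too high. The limma comparisons of TM testes with AC and MZ testes were also computed with the pair merged into 1 library. SDs, shares, differences between internal region and LTR, and correlations were computed only with the 2 libraries separate.

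**Figure D1:**
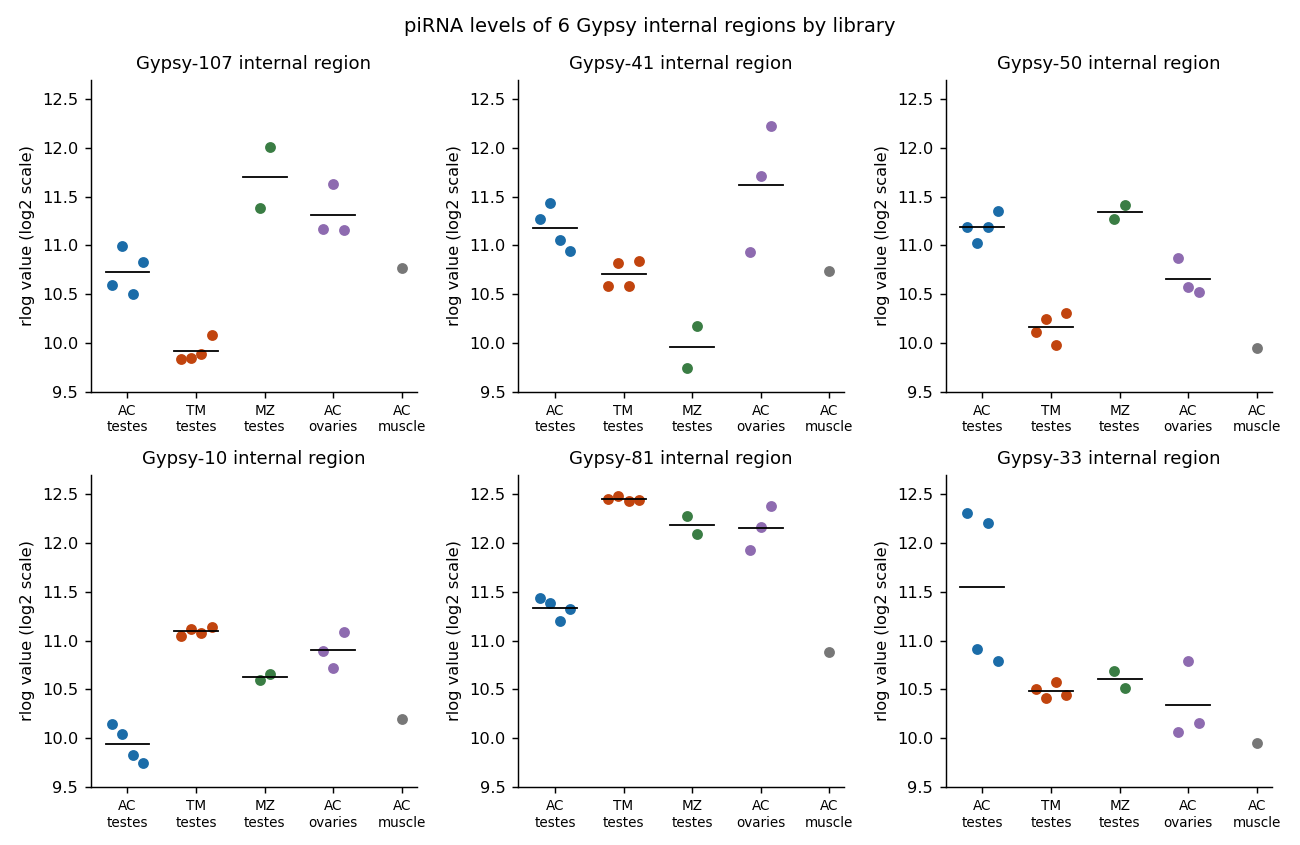
Points are libraries, the vertical axis is the rlog value on the log2 scale, the horizontal axis gives the 5 groups, and lines mark means of groups with several libraries. TM testes are lowest for Gypsy-107 and Gypsy-50, MZ testes for Gypsy-41 and AC testes for Gypsy-10 and Gypsy-81 among the testes, and Gypsy-33 shows 2 high AC testis libraries at 12.31 and 12.20.

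Gypsy-107 (Gypsy-107_[INT]) had the widest spread over species of all 103 Gypsy internal regions, with MZ high and TM low. Its rlog values were 10.59, 10.99, 10.50 and 10.83 in AC testes, 9.84, 9.85, 9.88 and 10.08 in TM testes, and 11.39 and 12.01 in MZ testes. No library of one species reached into the range of another. The level in AC testes averaged 10.73 ± 0.225 (SD, n = 4), in TM testes 9.91 ± 0.111 (n = 4) and in MZ testes 11.70 ± 0.437 (n = 2). On the log2 scale TM testes minus MZ testes came to −1.79, so that MZ testes held 3.45 times the level of TM testes in the deposited values. AC testes lay between them, 0.82 above TM testes and 0.97 below MZ testes. With scaling to all 24 to 35 nucleotide reads TM minus MZ was −1.43 and AC minus MZ −0.58. Both MZ libraries had a lower share of reads assigned to TEs than the other testis libraries. Among all 557 families the range of Gypsy-107, 1.79, ranked second, behind the internal region of Pao-20 with 1.80.

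The LTR entry of Gypsy-107 did not follow. It stood at 9.97, 10.16, 10.09 and 10.24 in AC testes, 10.05, 10.20, 10.09 and 10.39 in TM testes, and 10.35 and 10.33 in MZ testes. AC and TM libraries were interleaved, and the species means covered only 0.23. For the LTR entry, TM testes minus MZ testes was −0.16 (95% interval −0.40 to 0.08, limma adjusted p = 0.291), and AC testes minus TM testes was −0.07 (−0.27 to 0.13, adjusted p = 0.562). Internal region minus LTR was accordingly 0.62 ± 0.174 in AC testes, −0.27 ± 0.0755 in TM testes and 1.36 ± 0.454 in MZ testes (SD, n = 4, 4 and 2). Only the internal region was chosen for a large difference between testes, so nothing is read from these differing steps or from the sign in TM testes.

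Gypsy-41 (Gypsy-41_[INT]) was the one region of the 6 that was lowest in MZ testes. Its values were 11.27, 11.43, 11.06 and 10.94 in AC testes, 10.59, 10.81, 10.58 and 10.84 in TM testes, and 9.74 and 10.18 in MZ testes. The 3 species did not overlap, although the lowest AC library and the highest TM library lay closer to each other than the lowest and highest TM libraries. AC testes averaged 11.18 ± 0.219, TM testes 10.71 ± 0.141 and MZ testes 9.96 ± 0.311 (SD). AC testes held 2.33 times the MZ level (log2 difference 1.22) and 1.39 times the TM level (0.47), and TM testes held 1.68 times the MZ level (0.75). With scaling to all 24 to 35 nucleotide reads AC minus MZ was 1.61 and TM minus MZ 1.10.

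Gypsy-50 (Gypsy-50_[INT]) set TM testes apart from both other species. AC testes had 11.19, 11.03, 11.18 and 11.35, TM testes 10.11, 10.24, 9.98 and 10.30, and MZ testes 11.27 and 11.42. AC and MZ libraries overlapped, at means of 11.19 ± 0.131 and 11.35 ± 0.103, whereas TM testes lay wholly below them at 10.16 ± 0.145. AC testes exceeded TM testes by 1.03 on the log2 scale, which is 2.04 times the level, and TM testes lay 1.19 below MZ testes, where the level was 2.28 times that of TM. With scaling to all 24 to 35 nucleotide reads TM minus MZ was −0.84.

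Here the LTR entry moved with the internal region, at far lower values. The LTR of Gypsy-50 stood at 4.26, 4.25, 4.34 and 4.47 in AC testes, 3.96, 4.01, 3.99 and 3.95 in TM testes, and 4.44 and 4.62 in MZ testes. As for the internal region, TM testes were lowest without overlap. In limma the LTR entry was higher in AC testes than in TM testes by 0.35 (SE 0.063, adjusted p = 0.00226) and lower in TM testes than in MZ testes by 0.55 (TM minus MZ −0.55, SE 0.071, adjusted p = 0.00208), while AC testes minus MZ testes was −0.20 (adjusted p = 0.288). With TM replicates 1 and 3 merged the adjusted p-values were 0.00836 against AC and 0.00951 against MZ. The entry rests on some 4 to 95 reads in a gonad library, and with the replicate number as a block the TM to MZ difference was no longer called (−0.55, adjusted p = 0.137). Scaling to all 24 to 35 nucleotide reads also ended that call (−0.20, adjusted p = 0.0861).

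Gypsy-10 and Gypsy-81 formed a pair, low in AC testes and high in TM testes. The internal region Gypsy-10_[INT] had 10.14, 10.05, 9.83 and 9.74 in AC testes, 11.05, 11.12, 11.08 and 11.14 in TM testes, and 10.59 and 10.65 in MZ testes. The species fell into 3 separate bands, at 9.94 ± 0.188 in AC, 11.10 ± 0.0397 in TM and 10.62 ± 0.0435 in MZ (SD). TM testes held 2.23 times the AC level (AC minus TM −1.16) and MZ testes 1.61 times the AC level (AC minus MZ −0.68), and TM exceeded MZ by 0.47. With scaling to all 24 to 35 nucleotide reads AC minus MZ was −0.30 and TM minus MZ 0.82.

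Gypsy-81 (Gypsy-81_[INT]) stood highest in TM testes, where it ranked 42 of 557 families, against 193 in AC testes and 70 in MZ testes. Levels are neither per length nor per genomic copy, so these ranks serve only to compare groups. The values of Gypsy-81 were 11.44, 11.39, 11.20 and 11.32 in AC testes, 12.45, 12.48, 12.43 and 12.44 in TM testes, and 12.28 and 12.09 in MZ testes. In the deposited values AC testes were low by a wide margin, whereas TM and MZ testes lay close to each other without touching. The means were 11.34 ± 0.104, 12.45 ± 0.0237 and 12.18 ± 0.135 (SD), so AC testes lay 1.11 below TM testes and 0.85 below MZ testes, and TM testes 0.27 above MZ testes. With scaling to all 24 to 35 nucleotide reads MZ testes lay nearer to AC than to TM testes (AC minus MZ −0.46, TM minus MZ 0.62).

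The LTR entries of this pair behaved differently from each other. That of Gypsy-10 had 8.77, 8.57, 8.36 and 8.36 in AC testes, 8.94, 9.04, 8.93 and 9.03 in TM testes, and 8.99 and 8.85 in MZ testes. AC testes were lowest again, by 0.47 against TM testes (AC minus TM −0.47, SE 0.098, limma adjusted p = 0.00482), which is the direction of the internal region at less than its size. The LTR of Gypsy-81 had 8.21, 8.11, 7.56 and 7.57 in AC testes, 8.29, 8.21, 8.25 and 7.95 in TM testes, and 7.96 and 8.01 in MZ testes. These libraries overlapped, and none of its 3 species comparisons was called (AC minus TM −0.31, adjusted p = 0.144).

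Gypsy-33 (Gypsy-33_[INT]) owed its place to AC testes, and within them to 2 of 4 libraries. AC testes had 12.31, 10.91, 12.20 and 10.79 in replicates 1 to 4, TM testes 10.51, 10.41, 10.58 and 10.44, and MZ testes 10.69 and 10.52. All AC libraries lay above those of TM and MZ, but replicates 2 and 4 only narrowly so, and TM and MZ testes overlapped. The AC mean of 11.55 ± 0.813 exceeded the TM mean of 10.48 ± 0.0734 by 1.07 and the MZ mean of 10.60 ± 0.123 by 0.95 (SD). With scaling to all 24 to 35 nucleotide reads AC minus MZ was 1.34. The SD of Gypsy-33 in AC testes was the largest of all 557 families, whose median SD there was 0.123. Replicates 1 and 3 averaged 12.26, which is 2.65 times the level of replicates 2 and 4, at 10.85.

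The same libraries were high for the LTR entry of Gypsy-33, which had 6.88, 6.09, 6.91 and 6.14 in AC testes, 6.10, 6.0, 6.12 and 6.0 in TM testes, and 6.26 and 6.20 in MZ testes. The 2 high AC libraries stood 0.78 above the other AC libraries on average. Ranked by the gap between replicates 1 and 3 on one side and replicates 2 and 4 on the other, the internal region of Gypsy-33 came first of 557 families and its LTR second. This split was taken from the values of the internal region itself, so nothing is read from its first rank. In all, replicates 1 and 3 both exceeded replicates 2 and 4 in 117 families (21.0%) and both fell below them in 95. The next families by SD in AC testes split in other ways: the internal region of Gypsy-51 (SD 0.758) was high in replicates 1 and 4, at 12.22 and 12.00, against 10.67 and 10.97 in replicates 2 and 3. The LTR of Pao-20 (SD 0.651), the internal region of Pao-10 (0.568) and the LTR of Gypsy-87 (0.550) completed the first 5. No species comparison of the Gypsy-33 LTR was called (AC minus TM 0.45, adjusted p = 0.0812). AC minus TM was called without AC testis replicate 2 (0.59, adjusted p = 0.0254) or 4 (0.57, 0.0386), with scaling to all reads (0.49, 0.0409) and with the replicate block (0.45, 0.047).

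**Figure D2:**
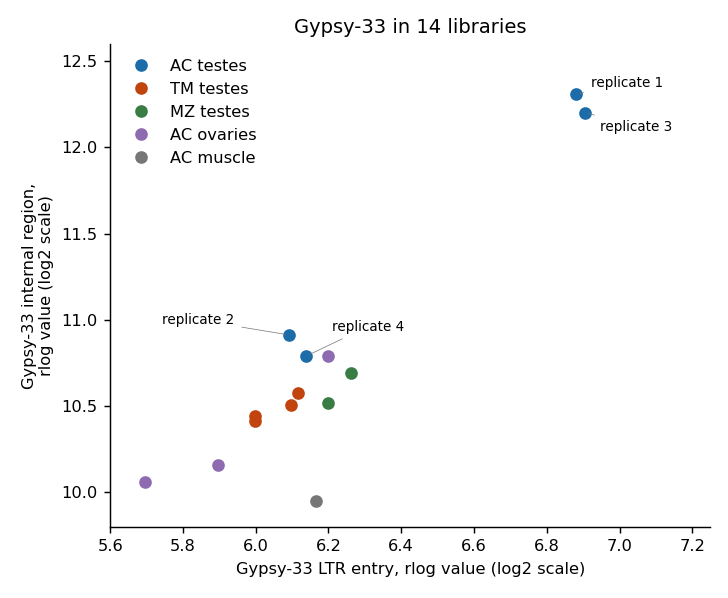
Each point is 1 of 14 libraries, with the rlog value of the Gypsy-33 LTR entry on the horizontal axis and that of the internal region on the vertical axis, both on the log2 scale. Replicates 1 and 3 of AC testes lie apart in both entries, at 12.31 and 12.20 for the internal region, while replicates 2 and 4 lie beside the other gonads.

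Over the whole set, the 6 regions showed no overlap between AC and TM testes, where 42.6% of all 554 families tested had none and 42.4% were called by limma. For AC against MZ testes 5 of 6 did not overlap (41.9% of all families, 16.2% called), and for TM against MZ testes again 5 of 6 (46.4% of all families, 23.3% called). As these contrasts chose the regions, nothing is read from the counts. The sizes follow from the choice too: the range over species means had a median of 1.17 in the 6 regions, of 0.35 in the other 97 Gypsy internal regions and of 0.29 in all families. Their 5 LTR entries, which the choice did not use but which come from the same libraries, had ranges of 0.23 for Gypsy-107, 0.55 for Gypsy-50, 0.47 for Gypsy-10, 0.31 for Gypsy-81 and 0.45 for Gypsy-33. The median of these, 0.45, compares with 0.32 in all 100 Gypsy LTR entries. Of the 5 LTR entries limma called 2 between AC and TM testes and 1 between TM and MZ testes. Between AC and MZ testes limma called 0, and 1 of them, that of Gypsy-10, had an unadjusted p under 0.05 (limma, adjusted p = 0.0928).

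**Figure D3:**
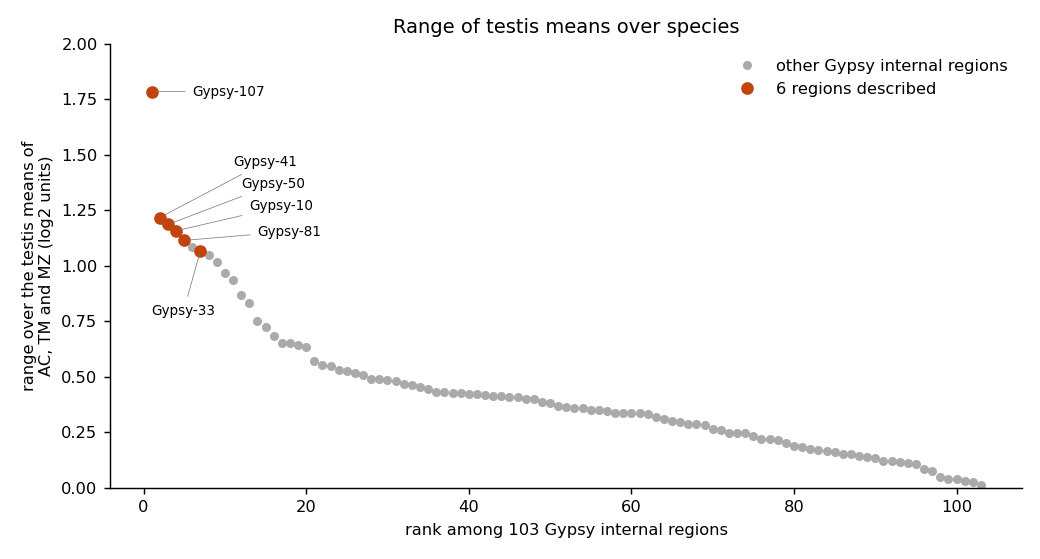
Each point is 1 of 103 Gypsy internal regions, ordered by rank on the horizontal axis, and the vertical axis is the range over the testis means of AC, TM and MZ in log2 units. The 6 regions described lie between 1.07 and 1.79, and Gypsy-117 (grey, 1.09) falls among them.

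**Figure D4:**
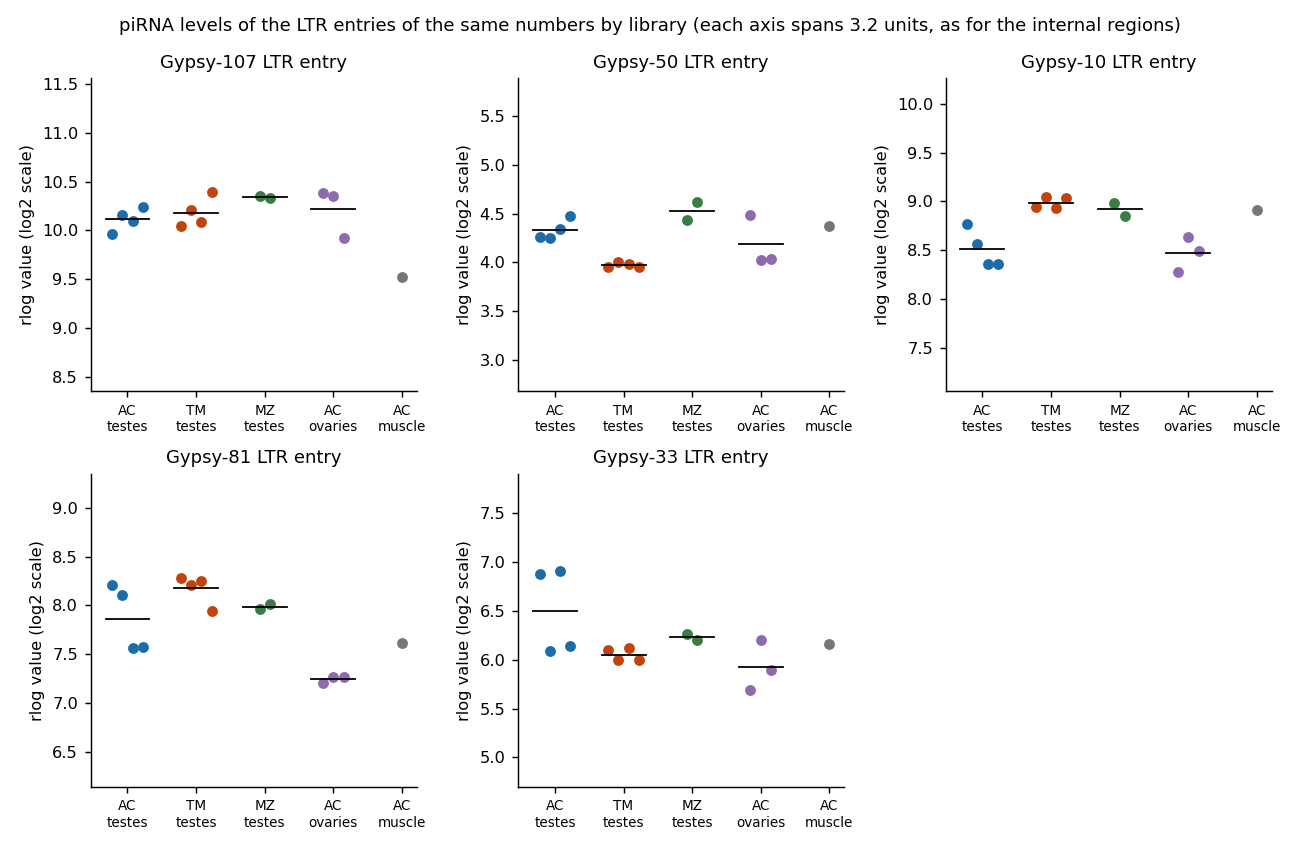
Points are libraries, the vertical axis is the rlog value of the LTR entry on the log2 scale, the horizontal axis gives the 5 groups, and lines mark group means. The axes cover as many log2 units as those of the internal regions, and the species means spanned 0.23 for Gypsy-107 to 0.55 for Gypsy-50. rlog shrinkage is stronger where reads are fewer. The LTR of Gypsy-107 held roughly 243 to 5644 reads in a gonad library, against 419 to 12299 for its internal region. The part of shrinkage in its spread was not tested. Only the internal regions were chosen for large differences, so nothing is read from the narrower spread.

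The choice did not use AC ovaries, but the AC testis libraries that it used are one arm of the comparison between these organs, so its calls are not independent of the choice. In limma, 5 of the 6 regions were called, 2 higher and 3 lower in testes (with scaling to all 24 to 35 nucleotide reads, 2 called and the 3 no longer lower), where 42.1% of all 554 families were called (20.8% higher and 21.3% lower). With scaling to all reads 304 of the 554 families were called higher in testes and 1 lower. Under the deposited scaling the other 97 Gypsy internal regions counted 7 higher, 48 lower and 42 not called, with a median log2 fold change of −0.31 against −0.01 over all families. Ovaries and testes differ in their germ cells and in the somatic cells around them, and in bulk tissue fewer cells of a type and fewer piRNAs per cell cannot be told apart. The ovary libraries stood apart from each other: the share of reads assigned to TEs was lowest in ovary replicate 1, higher in replicate 2 and near that of AC testes only in replicate 3. The ovary values of Gypsy-41 and Gypsy-81 rose in that same order, those of Gypsy-50 fell, and those of Gypsy-107, Gypsy-10 and Gypsy-33 did neither. The part of this share in the result was not tested. Without 1 ovary library in turn, testes minus ovaries ranged from −0.94 to −0.71 for Gypsy-81, always called, and from −0.79 to −0.14 for Gypsy-41.

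Gypsy-10 and Gypsy-81 were lower in AC testes than in AC ovaries. Both were picked on these AC testis libraries, where they were low, so the direction and its p are not independent of the choice. Gypsy-10 had 10.14, 10.05, 9.83 and 9.74 in testes, against 10.89, 10.72 and 11.09 in ovaries, with no overlap and a log2 fold change of −0.96 (SE 0.133, adjusted p = 0.000751). For Gypsy-81 the ovary libraries had 11.93, 12.16 and 12.39, again all above the testes (−0.82, SE 0.117, adjusted p = 0.000794). Under the deposited scaling AC ovaries lay nearer to TM and MZ testes than to AC testes in both regions: the ovary means were 10.90 ± 0.188 and 12.16 ± 0.227 (SD, n = 3). This reversed with scaling to all 24 to 35 nucleotide reads. AC ovaries then lay below AC testes (testes minus ovaries 0.40 and 0.54), while TM and MZ testes stayed above AC testes.

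Gypsy-107 was lower in testes too, with ovary values of 11.17, 11.63 and 11.15 that did not overlap the testes (−0.59, SE 0.156, adjusted p = 0.0136). Gypsy-50 was higher in testes, where all libraries lay above the 10.87, 10.58 and 10.52 of ovaries (0.53, SE 0.117, adjusted p = 0.00549). The ovary mean of Gypsy-50, 10.66 ± 0.190, fell between those of AC and TM testes under the deposited scaling. With scaling to all 24 to 35 nucleotide reads it fell below both (AC testes minus ovaries 1.89, AC minus TM testes 1.07).

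For the remaining regions single libraries decided the call. Gypsy-41 had ovary values of 10.93, 11.71 and 12.22, a spread whose SD of 0.651 ranked 8 of 557 families. Testes minus ovaries was −0.44 (SE 0.256, adjusted p = 0.183), and −0.79 (adjusted p = 0.0132) without ovary replicate 1. Gypsy-33 had ovary values of 10.06, 10.79 and 10.16, and its fold change of 1.22 (SE 0.380, adjusted p = 0.0281) was no longer called without testis replicate 1 (0.97, adjusted p = 0.0561), testis replicate 3 (1.00, 0.0687), ovary replicate 1 (1.08, 0.107) or ovary replicate 3 (1.13, 0.0938). The highest ovary library, 10.79, coincided with the lowest testis library. Gypsy-33 was picked on these AC testis libraries, where it was high, so its direction and p are not independent of the choice.

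Between the organs 1 of 5 LTR entries was called, that of Gypsy-81, whose direction was opposite to that of its internal region. This depended on the scaling: with scaling to all reads 4 of 5 LTR entries and 2 of 6 internal regions were called, and with scaling to summed TE values 4 of 5 and 4 of 6. The table shifted as a whole. Of all 554 families 304 were called higher in testes and 1 lower with scaling to all reads, and 267 and 28 with summed TE values. With scaling to all reads both Gypsy-81 entries were higher in testes (LTR 1.98, internal region 0.54, the internal region not called), and with summed TE values they kept opposite directions (1.00 and −0.45). The difference between LTR and internal region was not tested. Under the deposited scaling its LTR was higher in testes, at 8.21, 8.11, 7.56 and 7.57, against 7.20, 7.26 and 7.27 in ovaries (0.62, SE 0.181, adjusted p = 0.0215), while its internal region was lower there. Internal region minus LTR was thus 3.47 ± 0.260 in AC testes and 4.92 ± 0.193 in AC ovaries (SD, n = 4 and 3). The LTR call did not survive leaving out testis replicate 1 or 2 or ovary replicate 1 or 3, with adjusted p-values of 0.0506 to 0.0588. The other LTR entries overlapped between organs and were not called. That of Gypsy-107 had 10.38, 10.35 and 9.92 in ovaries (testes minus ovaries −0.10, adjusted p = 0.550) and that of Gypsy-50 had 4.49, 4.03 and 4.04 (0.15, adjusted p = 0.462). Gypsy-10, whose internal region had the smallest adjusted p of the 6 between organs, had LTR values of 8.28, 8.64 and 8.49 in ovaries (0.04, adjusted p = 0.826). The LTR of Gypsy-33 had 5.69, 6.20 and 5.90 in ovaries (0.57, adjusted p = 0.0764) and was called without testis replicate 2 (0.71, adjusted p = 0.038). All 100 Gypsy LTR entries counted 12 higher, 14 lower and 74 not called.

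**Figure D5:**
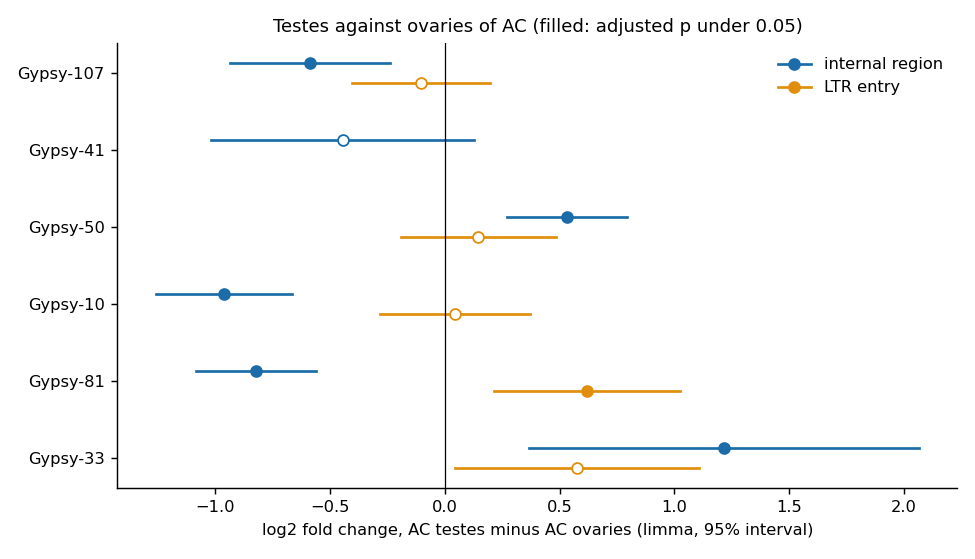
Points are log2 fold changes of AC testes minus AC ovaries from limma, lines their 95% intervals, filled points adjusted p under 0.05, for 6 internal regions and 5 LTR entries listed down the page. Gypsy-10 (−0.96), Gypsy-81 (−0.82) and Gypsy-107 (−0.59) lie left of 0, and the internal region and LTR of Gypsy-81 lie on opposite sides, under the deposited scaling; with scaling to all 24 to 35 nucleotide reads these 3 regions lie right of 0 (0.40, 0.54 and 0.77).

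The step between internal region and LTR thus varied between groups. Only the internal regions were chosen for large differences between testes of the species, so nothing is read from steps that differ between groups. Gypsy-10 exceeded its LTR by 1.42 ± 0.0566 in AC testes, 2.11 ± 0.0324 in TM testes, 1.70 ± 0.140 in MZ testes and 2.43 ± 0.307 in AC ovaries (SD, n = 4, 4, 2 and 3). Gypsy-81 exceeded its LTR by 4.28 ± 0.154 in TM testes and 4.20 ± 0.174 in MZ testes, between its values in AC testes and AC ovaries. For Gypsy-50 the step was 6.86 ± 0.0671 in AC testes, 6.18 ± 0.152 in TM testes, 6.82 ± 0.0230 in MZ testes and 6.47 ± 0.0848 in AC ovaries. For Gypsy-33 it was 5.05 ± 0.371 in AC testes, against 4.43 ± 0.0230 in TM testes, 4.37 ± 0.0781 in MZ testes and 4.41 ± 0.169 in AC ovaries. rlog shrinkage is stronger for the rarer LTR entries, and its part in these steps was not tested.

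The organ differences are relative to the families of the table as a whole, since DESeq2 scaling sets the median family near 0. With scaling to all 24 to 35 nucleotide reads the median family moved to 1.35, and the fold changes of Gypsy-107, Gypsy-10 and Gypsy-81 became 0.77, 0.40 and 0.54, none of them called. With scaling to the summed TE values Gypsy-107 was not called either (−0.21, adjusted p = 0.298). Gypsy-41 changed direction as well (0.91, adjusted p = 0.143), without being called under either scaling.

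AC muscle had 10.76 for Gypsy-107, 10.74 for Gypsy-41, 9.95 for Gypsy-50, 10.20 for Gypsy-10, 10.88 for Gypsy-81 and 9.95 for Gypsy-33. The LTR entries there had 9.52 for Gypsy-107, 4.37 for Gypsy-50, 8.91 for Gypsy-10, 7.62 for Gypsy-81 and 6.17 for Gypsy-33. With 1 library of few TE reads and values drawn towards the family means, no direction is given for muscle.

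Likeness over the 13 gonad libraries is given as a description, since these fall into 4 groups that share depth and organ. The testis libraries among them also chose the regions, so r between regions is not independent of the choice. Gypsy-10 and Gypsy-81 were most like each other of all families, with Pearson's r of 0.95, followed by the internal region of Pao-42 for both (0.94 and 0.95). The third was the internal region of Gypsy-39 for Gypsy-10 (0.92) and the LTR of Gypsy-53 for Gypsy-81 (0.95). Gypsy-50 ran against that pair, with r of −0.78 to Gypsy-10 and −0.72 to Gypsy-81, and partly with Gypsy-107 (0.67). Gypsy-33 also ran against the pair, at −0.71 to each.

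The LTR entry was the closest of all families for Gypsy-33 (r = 0.97) and for Gypsy-50 (0.90). By contrast the LTR ranked 72 for Gypsy-10 (0.55), 112 for Gypsy-107 (0.37) and 229 for Gypsy-81 (0.17). Nearest to Gypsy-107 were the internal region of Pao-20 (0.92), Maverick-2 (0.90), a family of large DNA transposons, and the internal region of Gypsy-73 (0.89). Gypsy-41 was nearest to the LTR of Gypsy-77 (0.90) and to the LINE families L2-21 (0.86) and L1-5 (0.84). Beside their own LTRs, Gypsy-50 was nearest to the LTRs of Gypsy-96 (0.89) and Pao-19 (0.88) and the internal region of Pao-4 (0.80). Gypsy-33 was nearest to the DNA element NA-DNA-16 (0.85), the internal region of Pao-45 (0.83) and hAT-Ac-18 (0.81).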

How the data were processed

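sRNAs of 24 to 35 nucleotides from gonads of AC, TM and MZ and from AC muscle were analysed, 14 of the 31 libraries of the series. The authors trimmed reads with cutadapt 1.15, mapped them to the AC genome fAstCal1.2 with STAR 2.5.4b (1 random position per multi-mapping read), counted them over the curated TE annotation with featureCounts 1.6.0 and normalised the counts with DESeq2. The deposited values are rlog values on the log2 scale and were used as they are; 4 tables of other annotations or species were not used, and 0 value columns could not be mapped to a library. The members and lists were chosen with earlier results of these data known.

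After families averaging under 10 on the linear scale were set aside (3.32 on the log2 scale; 554 of 557 stayed), 2 groups at a time were compared with limma 3.58.1 in R 4.3.3 (mean trend, Benjamini-Hochberg adjustment over all families tested, adjusted p under 0.05), and the fit was tested on simulated data. SDs are over libraries, and intervals are limma's 95% intervals. Count tests were not run, since rlog values do not give counts back. Approximate reads and 1 alternative scaling use the library totals of the study's mapping statistics. Named were the 6 regions, their LTR entries, the 3 families most like each over 13 gonad libraries, the 10 Gypsy internal regions next in range over species, and the 5 families of largest SD in AC testes. Alternatives were other scalings (all reads, summed TE values, the median family), minimum values (none, 100), a pseudocount of 10, all gonad groups in 1 fit, the replicate number as a block, TM replicates 1 and 3 as 1 library, and each library left out. Other steps used pandas 2.3.3, numpy 2.4.6 and matplotlib 3.10.9 under Python 3.11.15. The labels give no sequencing batch.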

Additional observations from a re-analysis of the deposited data

How the results depend on the processing

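Between AC and TM testes all differences of the 6 regions kept their direction under every alternative. These libraries helped to choose the regions for large differences, so nothing is read from that. Scaling to all 24 to 35 nucleotide reads put the median family at 1.35 for testes against ovaries, 0.37 for AC against MZ testes and 0.38 for TM against MZ testes, against −0.01, −0.02 and 0.02. It turned Gypsy-107 (0.77), Gypsy-10 (0.40) and Gypsy-81 (0.54) in the organ comparison and Gypsy-50 between AC and MZ testes (0.23), as well as Gypsy-41 between organs (0.91) and Gypsy-33 between TM and MZ testes (0.23), and left 2 of the 6 regions called between organs, against 5. Under it 304 families were higher and 1 lower in testes than in ovaries, with 267 and 28 after scaling to summed TE values and 93 and 144 after centring on the median family, against 115 and 118. Calls between AC and MZ testes numbered 323 under scaling to reads (314 higher, 9 lower; 67 and 34 with summed TE values) and those between TM and MZ testes 391 (377 higher, 14 lower; 76 and 57 with summed TE values), against 90 (40 and 50) and 129 (58 and 71). With all gonad groups in 1 fit TM against MZ testes had 60 calls, and with TM replicates 1 and 3 as 1 library 63.

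LTR entries called between organs numbered 4 under scaling to reads or to summed TE values and 2 with all gonad groups in 1 fit, against 1. Between AC and TM testes 1 was called with a minimum of 100, against 2. Between AC and MZ testes 1 was called with all gonad groups in 1 fit, against 0. Between TM and MZ testes 2 were called under scaling to reads (Gypsy-10 and Gypsy-81, while Gypsy-50 was lost) and 0 with a minimum of 100, against 1. The minimum of 100 set aside the LTR of Gypsy-50 before testing, which the main fits called between TM testes and both other species. The cause of the other changes was not tested.

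Deviations of same-numbered libraries correlated at −0.36 to 0.18 over the 4 comparisons, and at 0.016 to 0.18 between AC and TM testes. With 2 MZ libraries, whose deviations are opposite by construction, such values say little. Whether the numbers pair libraries was therefore not settled, and the main fits took them as unpaired. With the replicate number as a block, calls numbered 48 between AC and MZ testes, 21 between TM and MZ testes with 0 LTR entries, 182 between organs and 242 between AC and TM testes. Without 1 library, calls ranged from 5 to 57 between AC and MZ testes and from 62 to 154 between TM and MZ testes, regions called between organs from 4 to 5, and LTR entries called from 0 to 1 between organs and from 2 to 3 between AC and TM testes. With 2 MZ libraries, leaving 1 out assumes that the other varies like the AC or TM testes.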

Other observations

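The 10 Gypsy internal regions next in range over the species means of testes, Gypsy-117, Gypsy-73, Gypsy-51, Gypsy-95, Gypsy-30, Gypsy-13, Gypsy-55, Gypsy-116, Gypsy-11 and Gypsy-32, had ranges of 1.09 to 0.68 on the log2 scale. TM testes were highest and AC testes lowest in 4 of them, the order of Gypsy-10 and Gypsy-81, and MZ testes were highest and TM testes lowest in 2, the order of Gypsy-107 and Gypsy-50. AC testes were highest and MZ testes lowest in 2, as in Gypsy-41. Between AC testes and AC ovaries under the deposited scaling, limma called 5 of the 10 lower in testes, Gypsy-116 (−1.07, adjusted p = 0.000797), Gypsy-13 (−0.74, 0.00117), Gypsy-30 (−0.67, 0.00214), Gypsy-73 (−0.52, 0.0219) and Gypsy-117 (−0.48, 0.00912), and Gypsy-32 higher (0.86, 0.00214). The range that ranked these 10 regions used the same AC testis libraries, so their directions and p are not independent of it. The 97 Gypsy internal regions outside the described set, which include these 10, counted 7 higher, 48 lower and 42 not called. Of all 554 families 42.1% were called. With scaling to all 24 to 35 nucleotide reads 304 of the 554 families were called higher in testes and 1 lower, so the lower calls depended on the scaling.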
